A study of Arabidopsis thaliana with 3 samples.

Results

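BOI (AT4G19700), BRG1 (AT5G45100), BRG2 (AT1G79110) and BRG3 (AT3G12920) are 4 related Arabidopsis genes for RING proteins, and binding of the transcriptional regulator AtSDR4L was measured around each of them. The genes were taken by locus, as 4 of 27444 nuclear protein-coding genes. They were chosen by the fold enrichment and repeatability of peaks beside BRG1 and BRG3 in earlier results of the same data, so the enrichment is described here and was not tested. A peak was assigned to a gene when its summit, the position of highest enrichment, lay within the gene or up to 3000 bp outside either end.

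Many RING proteins are E3 ubiquitin ligases, which attach ubiquitin to other proteins. BOI was found as a partner of the MYB factor BOS1 in the response to the fungus Botrytis, and the 3 BRG genes (BOI-related genes) encode its closest relatives. The 4 proteins also bind DELLA proteins, the repressors of gibberellin responses, and restrain gibberellin-promoted processes such as germination and flowering. AtSDR4L itself takes its name from SDR4, a seed dormancy protein of rice.

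ChIP-seq was carried out on whole AtSDR4L-HA seedlings, in which an HA-tagged form of the protein is induced by β-estradiol. The 2 induced samples, called biological replicates by the submitters, had 1 µM β-estradiol in the medium. The control was 1 uninduced library of the same AtSDR4L-HA seedlings, immunoprecipitated with the same HA antibody. After 3 days of cold stratification in the dark, all seedlings grew at 22 °C under 16 h of light and 8 h of dark to 4 days after imbibition, and all of them, the control included, carry the transgene. The labels name neither the promoter behind the inducible system nor the number of transgenic lines. Fold enrichment is the authors' value at a summit over that 1 control, and the control has no values of its own in the lists. Without read counts in the lists, sequencing depth is unknown. The 1 control library is shared by both folds, so a feature of that library and an effect of induction cannot be told apart.

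Every one of the 4 genes had peaks in both replicates, and on both sides of the gene. The replicate 1 list held 17 peaks in the 4 windows and the replicate 2 list held 10. All 10 peaks of replicate 2 overlapped one of replicate 1, which gave 10 matched regions in the authors' deposited table of irreproducible discovery rates (IDR, a measure of how repeatably a region ranks in both replicates, where lower is more repeatable). Over all nuclear coding genes, 51.6% had a replicate 1 peak, 22.3% a replicate 2 peak, 12.4% a matched region and 12.4% overlapping peaks of both replicates by the same window. Matched regions lay on both sides of all 4 genes, against 0.372% of all coding genes, and 2 or more matched regions lay at all 4, against 1.16%. At an IDR of at most 0.05, BOI, BRG1 and BRG3 had a matched region and BRG2 had none, against 1.05% of all coding genes. These shares are given for scale only, since the genes were chosen for such peaks.

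**Figure D1:**
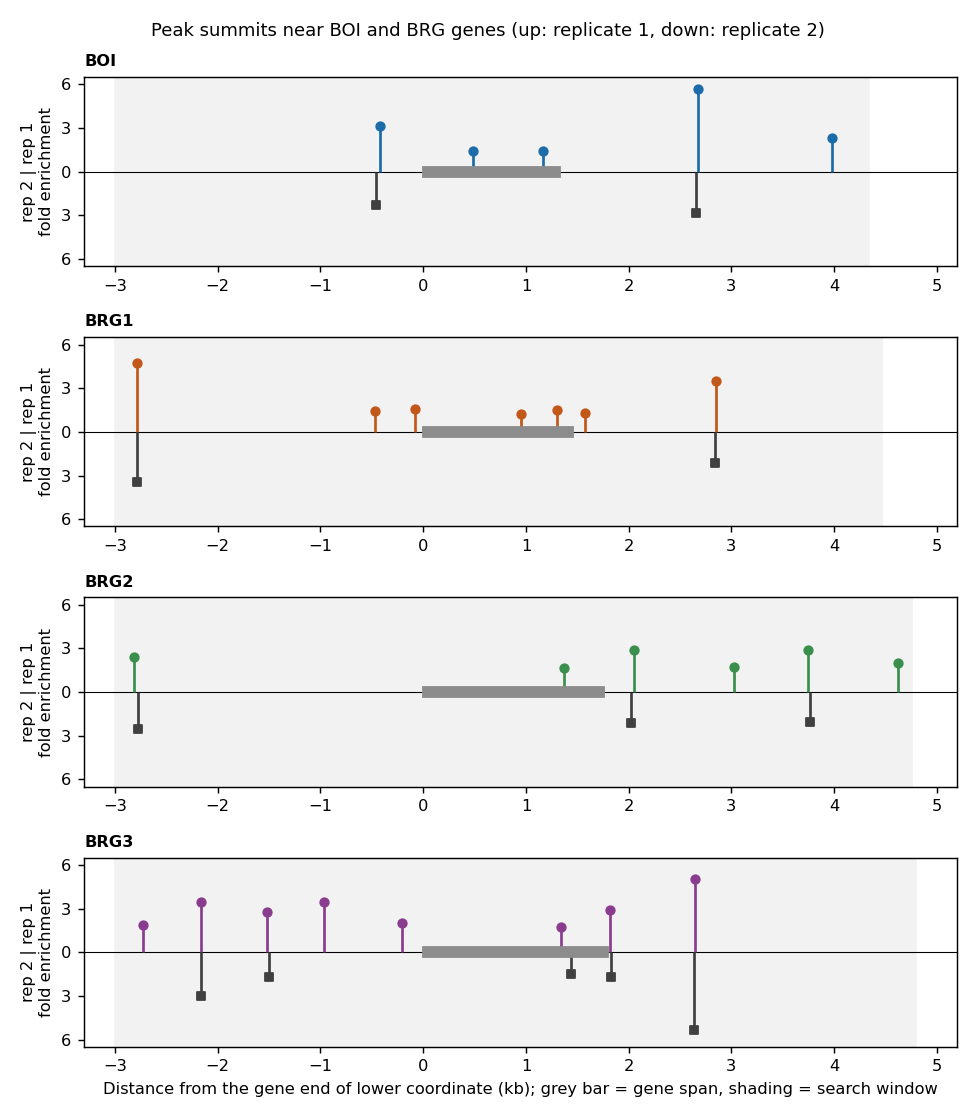
Each panel shows 1 gene as a grey bar, with distance from its end of lower coordinate on the x axis in kb and the fold enrichment of each summit on the y axis, replicate 1 upwards and replicate 2 downwards. The highest summits of each replicate stand outside the gene bars. At BOI, BRG1 and BRG3 they fall at nearly the same position in both replicates, such as the BRG3 summits of 5.01 in replicate 1 and 5.36 in replicate 2, and at BRG2 they lie on opposite sides of the gene (2.90 in replicate 1 and 2.54 in replicate 2).

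BRG3 had the strongest region of the 4 genes. It lay 0.8 kb beyond the end of higher coordinate, at chromosome 3: 4124151-4124731, and its fold was 5.01 in replicate 1 and 5.36 in replicate 2 (mean 5.19 ± 0.247, SD, n = 2). The authors' deposited table gives it an IDR of 0.000795. Both replicates were high, and they differed little. This was the highest replicate 2 fold among all 1784 matched regions, while in replicate 1 it ranked 24. The region was closer to a long non-coding RNA gene, AT3G02605, than to BRG3, which was the nearest coding gene.

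A broad region lay on the other side of BRG3. At chromosome 3: 4118648-4121848, replicate 1 had 1 peak of 3201 bp with 5 summits of 1.90, 3.42, 2.79, 3.46 and 2.02 in order of position. Replicate 2 had a narrower peak there, with 2 summits of 3.04 and 1.68. Those 2 summits fell 4 bp and 19 bp from the replicate 1 summits of 3.42 and 2.79, whereas the replicate 1 summit of 3.46 had no partner within the replicate 2 peak. The authors' deposited table gives this region an IDR of 0.648515, the highest value it holds, although its folds exceeded the medians of all matched regions (2.24 in replicate 1 and 1.79 in replicate 2).

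Another BRG3 region spanned the end of higher coordinate, at chromosome 3: 4122999-4123869. Its main summit lay 0.03 kb outside the gene, with 2.90 in replicate 1 and 1.68 in replicate 2. A weaker summit inside the gene had 1.73 in replicate 1 and 1.50 in replicate 2. The replicates thus differed more here than at the strongest BRG3 region, and the IDR in the authors' deposited table was again 0.648515.

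BRG1 had the most repeatable region. At chromosome 5: 18215518-18216140 the fold reached 4.76 in replicate 1 and 3.46 in replicate 2 (mean 4.11 ± 0.92, SD, n = 2), and its IDR of 0.000276 was the seventh lowest in the authors' deposited table. The replicate summits were 2 bp apart. With a distance of 2.8 kb from the gene, this region was only just inside the window, and no other coding gene was nearer. The gap to the neighbouring coding gene on that side, AT5G45095, was 9.5 kb.

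On the other side of BRG1, at chromosome 5: 18221052-18221717, the fold was 3.48 in replicate 1 and 2.16 in replicate 2, and the authors' deposited table lists an IDR of 0.0357. That region lay 1.4 kb from the gene, and the next coding gene on that side was NPR3, a salicylic acid receptor gene, across a gap of 8.7 kb. Just outside the window, 4.7 kb from BRG1, another matched region of the authors' deposited table (IDR 0.0181) had 2.81 in replicate 1 and 2.15 in replicate 2, with BRG1 again the nearest coding gene. Peaks at the gene itself were weak. The 2 remaining replicate 1 peaks, one at each end of the gene span, had highest-q summits of 1.54 and 1.60, and replicate 2 had no peak there.

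BOI showed the largest gap between the replicates. At chromosome 4: 10715562-10716288, 1.3 kb beyond the end of higher coordinate, the fold was 5.70 in replicate 1 and 2.83 in replicate 2 (mean 4.27 ± 2.03, SD, n = 2), and the authors' deposited table puts its IDR at 0.00748. Replicate 1 was thus higher by a factor of 2.02, and the value rests in part on that library, since replicate 2 alone gives 2.83. For comparison, the median ratio of replicate 1 to replicate 2 was 1.34 over the 182 regions with an IDR of at most 0.05. The other BOI region, at chromosome 4: 10712566-10713433, lay 0.4 kb beyond the end of lower coordinate with 3.15 in replicate 1, 2.28 in replicate 2 and, from the authors' deposited table, an IDR of 0.0396.

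Between and beyond these regions, BOI had 3 further peaks in replicate 1 only. A pair inside the gene had 1.45 each, and a peak 2.6 kb away on the higher side had 2.29. The gaps to the neighbouring coding genes were 4.4 kb to IRT1, the iron transporter gene of the root, and 10.1 kb to AK-HSDH II, an enzyme gene of amino acid synthesis. No other coding gene was therefore nearer to either BOI region. A total of 12 genes, or 0.0437% of all coding genes, had 2 or more matched regions with an IDR of at most 0.05 in their window, and BOI and BRG1 were 2 of them.

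BRG2 had the weakest enrichment, spread over 3 matched regions of similar height. The region of lowest IDR, at chromosome 1: 29762535-29762990, had 2.90 in replicate 1 and 2.08 in replicate 2 (mean 2.49 ± 0.582, SD, n = 2), where the authors' deposited table gives an IDR of 0.0855. It lay 2.0 kb from BRG2 and 1.3 kb from AT1G79120, which was the nearer gene. Closest to BRG2, at 0.3 kb, was the region at chromosome 1: 29760736-29762224, with 2.88 in replicate 1, 2.11 in replicate 2 and an IDR of 0.368 by the authors' deposited table. On the other side, at chromosome 1: 29755980-29756453, the fold was 2.38 in replicate 1 and 2.54 in replicate 2, and the IDR by the authors' deposited table was 0.137. This last region lay 2.8 kb from BRG2 and only 0.2 kb from AT1G79103, so that 1 of the 3 regions had BRG2 as its nearest coding gene. Replicate 1 alone also had a peak of 1.63 inside BRG2 and a peak of 2.01 beside AT1G79120.

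The stronger and repeated enrichment of all 4 genes lay in the flanks, beside weaker summits inside each gene. Of the 10 matched regions, 4 had their summit on the lower side, 6 on the higher side and 0 inside the gene span. Of all nuclear matched regions, 38.9% had the summit inside a coding gene, and 13.2% of those with an IDR of at most 0.05. The windows held 3000 bp on each side of genes only 1.34 to 1.79 kb long, so 0 of 10 does not set these genes apart. Of the same 10, 8 had one of the 4 genes as nearest coding gene. Summits inside the genes had folds of 1.26 to 1.73 in replicate 1, and the 1 such summit of replicate 2, in BRG3, had 1.50. The 7 replicate 1 peaks without a partner had folds of 1.45 to 2.29, below the range of the matched replicate 1 peaks (2.38 to 5.70). The 4 genes stood in wide spaces: gaps to the next coding gene ran from 3.0 to 10.1 kb, against a median of 0.664 kb between coding genes. Among the 1248 coding genes with more than 3000 bp of such space on both sides, a group defined after the values were seen, 0.801% (10 genes, the 4 included) had matched regions on both sides and 1.84% had a matched region with an IDR of at most 0.05. Just beyond the window, matched regions lay 4.4 kb from BRG3 (2.90 in replicate 1 and 2.37 in replicate 2, nearest to AT3G12930) and 6.0 kb from BRG2 (3.38 and 2.74, inside AT1G79120), and BOI had a replicate 1 peak of 1.81 at 3.4 kb. The gene table gives no strand, so the sides cannot be named promoter or downstream flank.

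**Figure D2:**
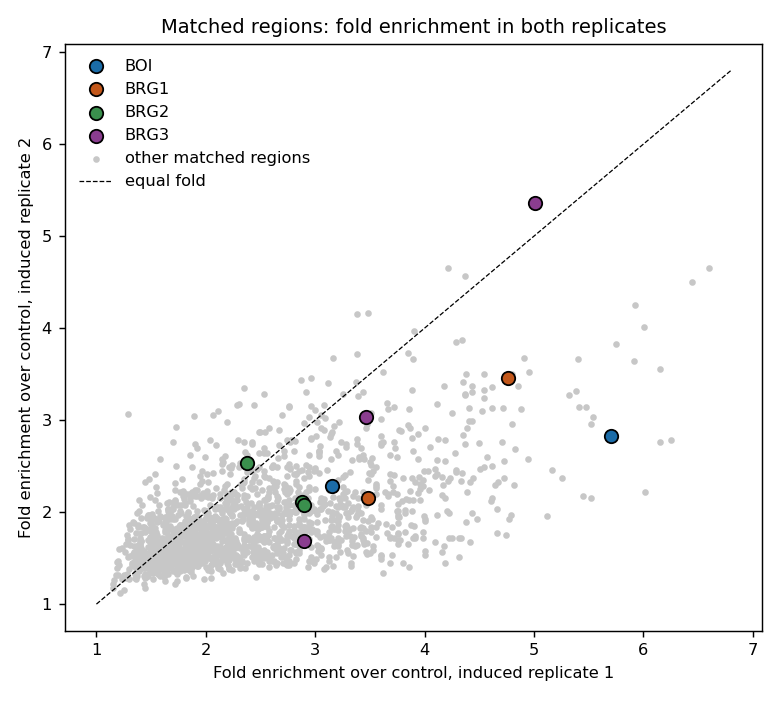
Fold enrichment of each matched region in replicate 1 (x axis) and replicate 2 (y axis), with the 10 regions at BOI and the BRG genes in colour, all other matched regions in grey and a dashed line of equal fold. BRG3 at 5.01 and 5.36 and BRG2 at 2.38 and 2.54 lie above the line, and the other 8 coloured regions lie below it. The broad BRG3 region is drawn at 3.46 and 3.04, from summits 1194 bp apart. The replicate 1 summit closest to that replicate 2 summit had 3.42.

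Most replicate 2 summits at the 4 genes lay close to a replicate 1 summit. Of the 12 replicate 2 summits in the 4 windows, 11 lay within 50 bp of a replicate 1 summit, with a median distance of 19 bp. Over all 4447 nuclear replicate 2 summits, 25.1% did, with a median distance of 784 bp. That share is for scale only, since the genes were chosen for repeatable peaks. The exception at the 4 genes was the weak summit inside BRG3, at 104 bp. Taking only the highest-q summit of each replicate, 9 of the 10 matched regions had them within 50 bp of each other, and in the broad BRG3 region they were 1194 bp apart. Over all 1784 matched regions 53.5% had them within 50 bp, with a median gap of 44 bp, and at an IDR of at most 0.05 the median gap was 15 bp. In fold, replicate 1 was the higher one in 8 of the 10 regions, as it was in 78.1% of all matched regions.

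Ranked by the highest mean fold of a matched region in the window, BRG3 was surpassed by 3 of the 3400 coding genes that had such a region, BOI by 34, BRG1 by 46 and BRG2 by 846. The values of the 4 genes were 5.19, 4.27, 4.11 and 2.49 in that order, and the median over the 3400 genes was 2.02. Ranks and median are given for scale only, since fold enrichment was part of how the genes were chosen. BRG3 and BOI, and BOI and BRG1, differed by less than the SD of 2.03 at BOI. BRG2 lay below BRG1 in both replicates, with 2.88 and 2.11 at its region of highest mean fold.

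The regions most like each leading region were found by the distance between their log2 folds in the 2 induced replicates. For BOI they were the regions nearest to BBX29, a B-box gene (5.52 in replicate 1 and 2.95 in replicate 2), and AT3G61420 (5.54 and 3.04). Those for BRG1 were nearest to FLP1 (4.80 and 3.50) and SIS (4.85 and 3.38). The BRG2 region was most like those nearest to AT2G34810 (2.90 and 2.05) and LSH10 (2.94 and 2.07). No region came as close to that of BRG3, where the nearest ones were beside AT3G21320 (4.37 and 4.57) and AT3G58090 (4.22 and 4.66), at distances of 0.31 and 0.32 on the log2 scale, against 0.02 to 0.11 for the other 3 genes.

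The IDR of regions with several summits depended on which summit was read. In the authors' deposited table, the q-value of all 1784 matched regions equalled, within 0.001 on the −log10 scale, the lowest summit q found in either list. For the broad BRG3 region the table thus used a −log10 q of 3.15, while its strongest summits had 38.2 in replicate 1 and 27.0 in replicate 2. All 60 single-summit regions with q-values at least as strong in both replicates were given an IDR no higher than 0.0112 by the authors' deposited table. The authors' deposited table read the BRG2 region nearest to that gene at 3.67, against strongest summits of 25.0 in replicate 1 and 9.44 in replicate 2. For that region the like comparison was less clear, as the 201 such single-summit regions had a deposited IDR of up to 0.0832. For the BRG3 region across the gene end, the 342 such regions reached 0.397.

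The IDR was therefore recomputed with the same kind of model, a choice made after seeing the data. From the lowest summit q-values it gave 183 regions at 0.05 or below, among them all 182 of the deposited table. It also gave 0.328 for the broad BRG3 region, 0.457 for the BRG3 region across the gene end and 0.412 for the BRG2 region nearest to that gene. From the highest summit q-values, the same 3 regions had 0.0143, 0.291 and 0.0781 in that order. The like comparison for the broad BRG3 region is thus 0.328 with 0.0143. Its highest-q summits lay 1194 bp apart, so 0.0143 pairs different sites of the 2 replicates and does not measure the repeatability of 1 site. With that reading, 6 in place of 5 regions at the 4 genes had an IDR of at most 0.05, and BRG2 still had 0.

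**Figure D3:**
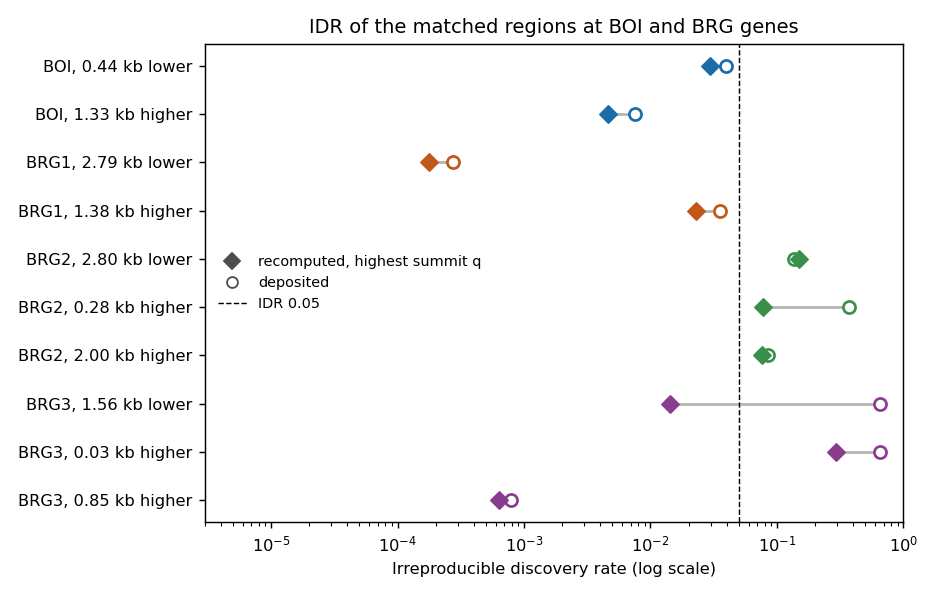
IDR of the 10 matched regions on a log x axis, each row labelled with the gene, the distance of the region and its side. Filled diamonds were recomputed from the highest summit q and open circles are the deposited values. The broad BRG3 region moves across the dashed line at 0.05, to 0.0143 recomputed against 0.648515 deposited, and no BRG2 region does. Recomputed from the lowest summit q, which is not drawn, that BRG3 region had 0.328. Its highest-q summits in the 2 replicates lay 1194 bp apart.

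The gibberellin pathway in which BOI acts had repeated peaks at some of its genes. Among 10 genes for gibberellin receptors, DELLA proteins and the F-box proteins that lead to DELLA breakdown, 9 had a replicate 1 peak, 5 a replicate 2 peak, 5 a matched region and 2 a matched region with an IDR of at most 0.05, against 51.6%, 22.3%, 12.4% and 1.05% of all coding genes. The list was chosen with earlier results of these data known, so these shares are for scale only and the contrast was not tested. The receptor gene GID1B had 3 matched regions in its window, as many as BRG2 and BRG3. Its region of lowest IDR (0.0273 in the authors' deposited table) lay 0.5 kb from the gene. The fold there was 3.27 in replicate 1 and 2.22 in replicate 2. RGL2, the DELLA gene known for its part in seed germination, had 3.13 in replicate 1 and 2.81 in replicate 2 in a region 1.1 kb away whose nearest gene was AT3G03460 (IDR 0.0318 in the authors' deposited table). The receptor gene GID1A (2.88 and 1.84) and the DELLA genes GAI (2.65 and 2.18) and RGA (2.53 and 1.97) also had matched regions. Their IDR in the authors' deposited table was 0.187 at GID1A, 0.113 at GAI and 0.0995 at RGA. The GID1A region lay 1.6 kb from that gene, and its nearest coding gene was AT3G05110. The median of the mean folds of these 5 genes was 2.41, taking the region of lowest IDR at each gene. The 2.02 over all 3400 genes takes the highest mean fold in the window, so the 2 medians are not the same measure. GID1C, RGL1, RGL3 and SLY1 had replicate 1 peaks only, of 1.47 to 1.81, and SNE had none.

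Partners and reported targets of BOI had a replicate 1 peak at 3 of 6 genes, a replicate 2 peak at 1 and a matched region at 0, against 51.6%, 22.3% and 12.4% of all coding genes. With 6 genes, these counts do not set the list apart. BOS1, the MYB partner that gave BOI its name, had peaks of 2.04 in replicate 1 and 1.49 in replicate 2 that were not matched to each other. EXP8, a cell wall expansin gene (1.83), and CO, a flowering gene (1.99), had replicate 1 peaks only. PRE1, PRE5 and FT had no peak in either list. A further list held 7 genes taken as other RING members of the S-ribonuclease binding protein family, an assignment from general knowledge that the gene table gives for SBP1 only. Of those 7, 6 had a replicate 1 peak, 1 a replicate 2 peak and 0 a matched region, against 51.6%, 22.3% and 12.4% of all coding genes, and so few genes do not set this list apart either. The replicate 1 folds ran from 1.40 to 2.49, and AT1G10650 had peaks in both lists (2.12 in replicate 1 and 2.13 in replicate 2). The absence of a peak says only that a region did not pass the authors' threshold in that library.

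**Figure D4:**
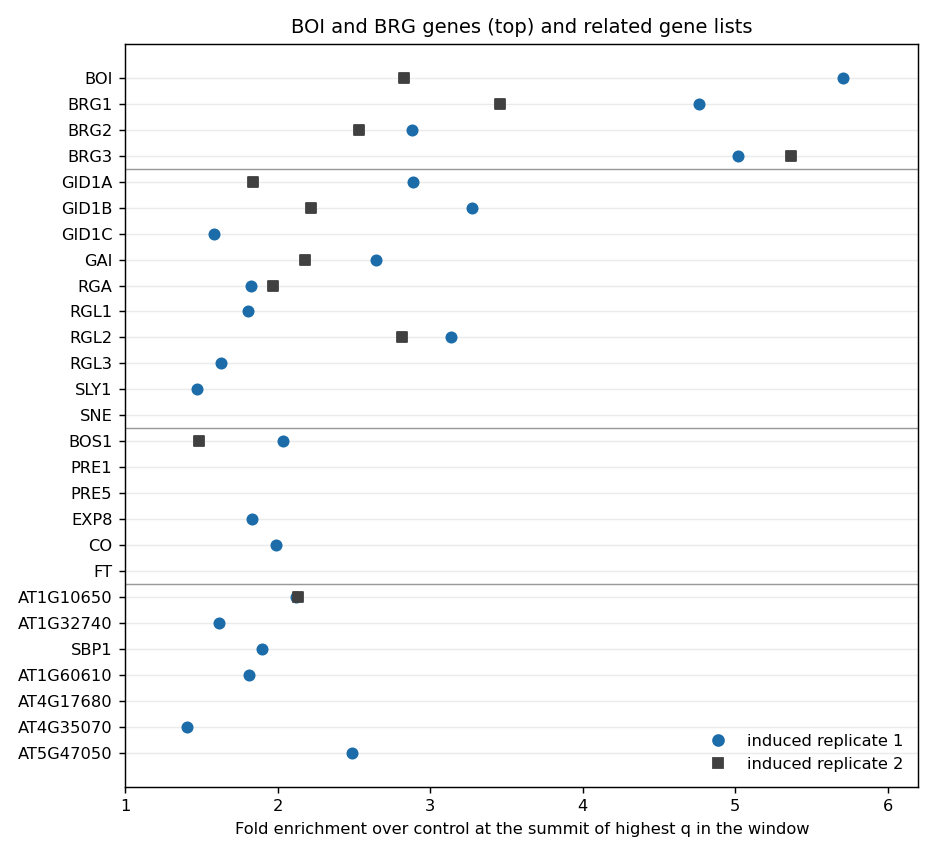
Fold enrichment at the summit of highest q in each gene's window (x axis), with circles for replicate 1 and squares for replicate 2 and 1 row per gene, the 4 BOI and BRG genes on top and the 3 related lists beneath. Replicate 2 squares stand at 2.54 or above for the 4 genes, and among the other genes plotted RGL2 alone exceeds that level, at 2.81. The BRG2 square of 2.54 is a peak nearest to AT1G79103. The replicate 2 peak nearest to BRG2 had 2.11, below the squares of GID1B (2.22), GAI (2.18) and AT1G10650 (2.13).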

How the data were processed

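Each induced replicate had a deposited peak list called with MACS2 2.2.7.1 against the 1 control, per the series' design text, and bcl2fastq 2.20, Bowtie2 2.3.5.1, SAMtools 1.7 and TAIR10 are named in the submitters' processing notes. The deposited lists give a score, a fold enrichment ratio and −log10 p and q values per summit, with all q-values at or below 0.1. The authors' deposited IDR table gives a scaled score and −log10 IDR. The labels do not state the IDR settings.

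Rows with the same start and end were taken as summits of 1 peak (12865 rows and 9811 nuclear peaks in replicate 1, 4502 and 3423 in replicate 2). Folds of matched regions are those of the summit with the highest q in each list. Shares over coding genes used the same window. Genes came from a RefSeq table of TAIR10.1, which lists BOI under the symbol RING, used for names, neighbours and distances, with coordinates printed only from the files (TAIR10). As a check of both builds, 13.2% of summits with an IDR of at most 0.05 lay inside coding genes, against 56.6% after shifts of 5 kb either way. No sequence is printed because no sequence table was used here.

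The members and gene lists were chosen with earlier results of these data known. All peaks at the 4 genes are named, with the 2 regions most like each leading region (lowest IDR), and all list genes with an IDR of at most 0.05 or else up to 6 of highest fold, and further list genes were named after their values were seen. Alternatives covered the window, q and IDR limits, the overlap rule, each replicate alone and the recomputed IDR, a Gaussian copula mixture checked on simulated data. The work used Python 3.11.15 with numpy 2.4.6, pandas 2.3.3, matplotlib 3.10.9 and scipy 1.17.1.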

Additional observations from a re-analysis of the deposited data

How the results depend on the processing

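Apart from folds of 1 replicate alone, all 39 recomputed values stayed within 1.5 times the reported count or within 1 SD of the reported mean fold. Not all of them were a check. The overlap counts with 1 replicate left out had no second list to overlap, and most alternative choices of the leading region gave the same region. The fall from 3 to 2 genes described next lies at the limit itself. With a window of 1000 bp, 3 of the 4 genes had a replicate 2 peak and a matched region (BRG1 had neither), and 2 (BOI and BRG3) had a region with an IDR of at most 0.05. At an IDR of at most 0.1 all 4 genes had one, and at 0.01 it was 3. Counts were 4, 4, 4 and 3 with windows of 2000 and 5000 bp and with summits nearest to each gene only. With 2 replicates, the fold of either one alone lies within 1 SD of their mean by construction and says nothing of stability. Using 1 replicate alone, the leading folds ranged from 2.83 (without replicate 1, against a mean of 4.27) to 5.70 at BOI, 3.46 to 4.76 at BRG1, 2.08 to 2.90 at BRG2 and 5.01 to 5.36 at BRG3. No paired analysis was possible because the 1 control library serves both replicates. With 2 replicates, 1 control and no read counts, the SD between replicates is the only error available for a fold.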

Other observations

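Reading the highest in place of the lowest summit q changed the table as a whole more than it changed the 4 genes. Of the 1784 matched regions, 643 (36.0%) had several summits in at least 1 list. Recomputed from the highest summit q-values, 277 regions had an IDR of at most 0.05, against 182 in the authors' deposited table. All 182 were among the 277, and 70 of the 95 added regions had several summits. The recomputation from the lowest q-values differed from the deposited values by at most 0.0382 in log10 IDR over those 182 regions and by at most 0.3 over all regions. In the deposited table, 646 regions shared the highest IDR of 0.648515, among them 2 BRG3 regions.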
